A study of Mus musculus with 5 samples.

Results

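Cohesin and condensin are ring-shaped protein complexes built on SMC (structural maintenance of chromosomes) ATPases, and 10 genes of their subunits are described here out of 21801 genes measured in mouse neuroepithelial cells (NECs). The 10 genes, Smc1a, Smc1b, Smc2, Smc3, Smc4, Rad21, Stag1, Stag2, Ncaph and Ncapg, were taken by symbol, and each symbol had 1 row in the table. NECs are the proliferating epithelium of the early neural tube, from which the radial glia and neurons of the neocortex descend. The labels give 1 group of 5 libraries, replicates 1 to 5, made from total RNA of purified mouse NECs, with no treatment, second genotype or control. Strain, age, sex, the way of purification and the animals behind the replicates are not stated in the sources used here, so a p-value speaks for the spread among these 5 libraries alone, and that spread may be technical.

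In cohesin, Smc1a and Smc3 form a V-shaped pair that the kleisin Rad21 closes into a ring, and Stag1 or Stag2 binds to Rad21. The ring holds sister chromatids together from S phase until anaphase and extrudes chromatin loops in interphase. In condensin, Smc2 and Smc4 form the pair, which is closed by the kleisin Ncaph together with Ncapg and Ncapd2 in condensin I, or by Ncaph2 together with Ncapg2 and Ncapd3 in condensin II, and the complexes compact chromosomes for mitosis. Smc1b takes the place of Smc1a in meiotic cells. In humans, mutations of cohesin genes and of the cohesin loader NIPBL cause Cornelia de Lange syndrome, and mutations of condensin genes have been found in microcephaly, a disorder of neural progenitor number.

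Promoter sequences are shown for the pair with the widest gap in level, Smc1a and Smc1b, and for the 3 condensin genes that had one in the RefSeq promoter table, because all 4 condensin genes were low in replicate 1 and high in replicate 4. The windows run from 250 bases before to 50 bases after the gene start (RefSeq, GRCm38.p6), are printed on the gene's strand, 5′ to 3′, and have in capitals the letters found by a search on both strands. The letters searched were TTCCCGC and TTGGCGC (the E2F motif, of factors that act at the start of S phase), TTTGAA and TTCGAA (the CHR, an element of genes used in G2 and mitosis, and a variant of it) and CCAAT (the CCAAT box, bound by NF-Y). None of these matches overlapped another.
Smc1a, chrX:152016178-152016477, plus strand: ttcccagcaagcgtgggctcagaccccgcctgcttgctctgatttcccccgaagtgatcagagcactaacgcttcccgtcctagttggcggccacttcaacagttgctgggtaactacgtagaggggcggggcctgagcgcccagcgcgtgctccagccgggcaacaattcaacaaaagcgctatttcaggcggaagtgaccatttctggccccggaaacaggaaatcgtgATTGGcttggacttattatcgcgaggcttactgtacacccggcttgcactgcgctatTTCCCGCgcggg
Smc1b, chr15:85131908-85132207, minus strand: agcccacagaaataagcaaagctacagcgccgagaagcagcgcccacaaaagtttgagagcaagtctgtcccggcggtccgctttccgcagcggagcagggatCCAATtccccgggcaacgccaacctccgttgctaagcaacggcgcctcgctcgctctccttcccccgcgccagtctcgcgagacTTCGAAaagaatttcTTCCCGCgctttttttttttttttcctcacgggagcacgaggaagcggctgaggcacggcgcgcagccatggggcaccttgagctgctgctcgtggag
Smc2, chr4:52438971-52439270, plus strand: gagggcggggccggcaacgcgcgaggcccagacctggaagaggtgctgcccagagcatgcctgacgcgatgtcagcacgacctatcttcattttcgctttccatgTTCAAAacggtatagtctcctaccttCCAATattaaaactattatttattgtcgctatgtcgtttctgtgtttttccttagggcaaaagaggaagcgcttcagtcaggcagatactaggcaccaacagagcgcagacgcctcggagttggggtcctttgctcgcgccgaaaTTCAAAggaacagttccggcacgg
Ncaph, chr2:127133905-127134204, minus strand: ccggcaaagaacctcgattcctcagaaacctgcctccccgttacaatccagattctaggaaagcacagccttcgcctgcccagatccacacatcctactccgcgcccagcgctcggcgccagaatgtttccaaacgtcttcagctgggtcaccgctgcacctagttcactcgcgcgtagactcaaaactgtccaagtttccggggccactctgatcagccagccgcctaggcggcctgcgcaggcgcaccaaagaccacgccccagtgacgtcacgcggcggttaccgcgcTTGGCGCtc
Ncapg, chr5:45669675-45669974, plus strand: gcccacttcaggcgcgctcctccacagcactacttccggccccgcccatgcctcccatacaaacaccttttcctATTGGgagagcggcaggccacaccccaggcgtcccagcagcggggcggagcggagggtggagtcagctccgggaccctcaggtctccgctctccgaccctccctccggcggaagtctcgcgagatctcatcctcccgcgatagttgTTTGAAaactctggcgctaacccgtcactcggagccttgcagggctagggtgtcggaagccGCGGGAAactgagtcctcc

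Of the 10 genes, 7 had a promoter in the table, and 5 of these 7 (Smc1a, Smc1b, Stag1, Ncaph and Ncapg) held an E2F motif, against 6.85% of 32544 promoters of the same length and 14.1% of the 5013 promoters whose genes were called above the typical expressed gene, the median of genes that averaged 1 FPKM or more. Counted on the printed strand from the gene start as position 1, the E2F letters began at position 39 in Smc1a, at -48 in Smc1b, at -16 in Stag1, at 42 in Ncaph and at 32 in Ncapg. TTTGAA was found in 2 of the 7, at -30 in Ncapg and at -145 and 27 in Smc2, against 17.8% of all promoters, and TTCGAA in Smc1b alone, at -63, against 1.56%. A CCAAT box was present in 5 of the 7 and in 37.4% of all promoters. Among promoters of genes called above the typical expressed gene, 13.4% held TTTGAA, 2.35% TTCGAA and 41.5% a CCAAT box. The E2F letters stood before the gene start in Smc1b and Stag1 and behind it in Smc1a, Ncaph and Ncapg. For Stag1 that start is the RefSeq one: its window, chr9:100643198-100643497, lies inside the gene, which begins at 100597798 in the GENCODE annotation. These matches are letters in a window, and no binding was measured.

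The series as a whole set the following frame. FPKM, fragments normalised to transcript length in kilobases and to 1000000 mapped reads, summed to 747034 to 847625 per library, and the steps between low values implied 20.5 to 28.2 M reads (1 M = 1000000) behind the unit. The typical expressed gene, a median over 10983 genes, stood at 11.3 to 11.9 FPKM in the 5 libraries. Of the 19706 genes tested, 52.3% were called above 1 FPKM, 26.1% above the typical expressed gene and 70.4% below it. Of the 12 neural progenitor markers 11 were called above 1 FPKM and none below, but 5 were called below the typical expressed gene and 5 above it. Pax6 stood at 64.6 ± 7.64 FPKM (SD, n = 5). The 5 below were Notch1 at 6.19 ± 1.97 FPKM, Nes at 3.55 ± 0.67, Sox1 at 2.17 ± 0.48, Sox3 at 2.10 ± 0.57 and Hes5 at 0.99 ± 0.33, the 1 marker not called above 1 FPKM. Some markers of other cells were called above 1 FPKM too, beside 52.3% of all genes tested. These were 6 of 10 neuron genes, 8 of 10 mesenchyme genes and 6 of 8 surface ectoderm genes. Of 8 erythroid and endothelial genes 1 was called above. Against the typical expressed gene, 2 neuron genes were called above and 7 below. For mesenchyme genes these counts were 1 and 5, and for surface ectoderm genes 2 and 5. Of the neuron genes, Tubb3 stood at 61.6 ± 13.1 FPKM, near the level of Pax6, Gap43 at 18.2 ± 5.23 and Map2 at 13.3 ± 5.01, and Dcx, Elavl3, Neurod1 and Rbfox3 were called below 1 FPKM. The summed level of the mesenchyme list ran from 39.3 to 142 FPKM over the libraries, and Dcn was its only gene called below 1 FPKM. Fewer cells of a type and less RNA per cell cannot be told apart in such bulk samples.

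The mitotic subunits of both complexes were abundant and the meiotic one was low. Of the 10 genes 9 were called above 1 FPKM (limma, Benjamini-Hochberg adjusted p under 0.05), where 52.3% of the 19706 genes tested were called above, and Smc1b was called below, as 41.4% of tested genes were. The same 9 lay above the typical expressed gene, where 26.1% of tested genes were called, and Smc1b lay below it, as did 70.4%. The median level of the 10 genes was 58.3 FPKM and that of all tested genes 1.79 FPKM. Together the 10 genes made up 0.0866% to 0.0954% of the summed FPKM of a library. All 10 had a value above 0 in 5 of 5 libraries.

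**Figure D1:**
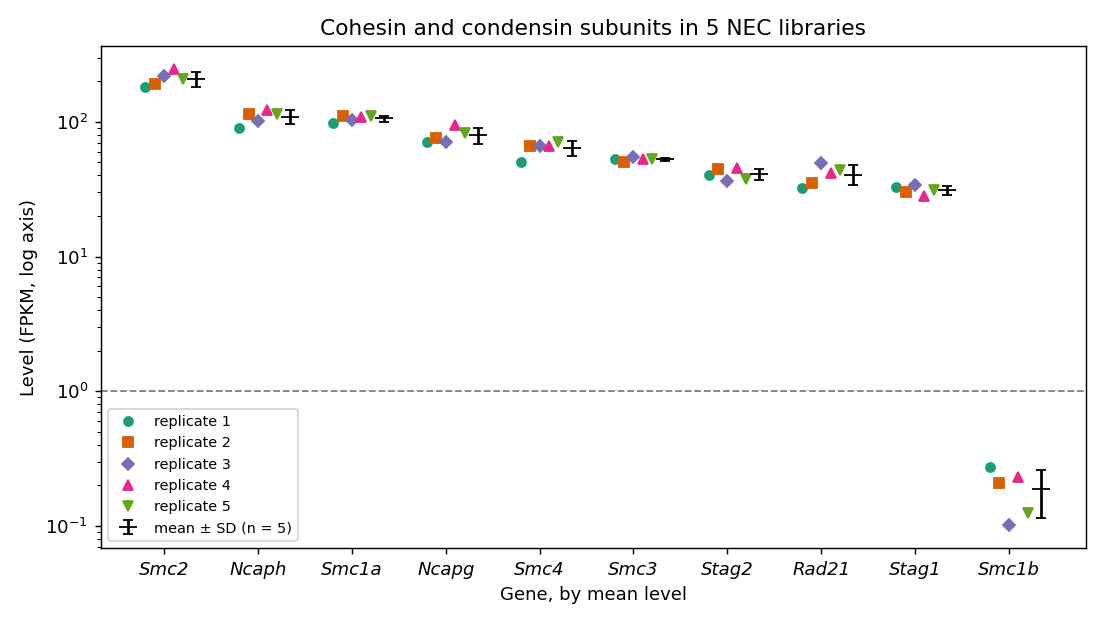
Level of each gene in FPKM (log axis) in the 5 NEC libraries, with 1 symbol per replicate, the mean and SD at the right of each gene and a dashed line at 1 FPKM. The 9 mitotic subunits lie between 27.9 and 248 FPKM and Smc1b between 0.101 and 0.273 FPKM.

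Smc1a, the ATPase on 1 arm of the mitotic cohesin ring (ENSMUSG00000041133, mm10 chromosome X, 152016428 to 152062694), was listed at 97.3, 111, 104, 108 and 110 FPKM, replicate 1 first. It was the highest cohesin subunit in every library and lay above the typical expressed gene by a log2(FPKM + 1) difference of 3.08 (SE 0.04; limma, adjusted p = 2.6e-12). Its partner Smc3 (ENSMUSG00000024974, chromosome 19, 53600398 to 53645833) was listed at 52.6, 50.3, 54.7, 53.1 and 53.0 FPKM. These were the steadiest values of the 9 mitotic subunits, with a CV of 2.98%, and only 1.23% of expressed genes had a smaller SD of log2 values. The Smc1a and Smc3 proteins pair in equal numbers, but protein was not measured. Smc1a exceeded Smc3 by 0.99 ± 0.10 on the log2(FPKM + 1) scale, higher in 5 of 5 libraries, a ratio of 1.85 to 2.2 in FPKM. For this and each of the 14 gene pairs compared, the exact two-sided sign-flip permutation test over 32 sign patterns gave a p = 0.063, both raw and adjusted over the pairs, which is the lowest that 5 libraries can give, so no pair could pass 0.05.

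Rad21, the kleisin that separase cuts at anaphase (ENSMUSG00000022314, chromosome 15, 51962240 to 51991747), was listed at 32.4, 35.2, 49.5, 41.7 and 44.1 FPKM, replicate 1 first. It was the least steady mitotic subunit, 1.53 times higher in replicate 3 than in replicate 1, and 76.8% of expressed genes had a smaller SD. Rad21 was below Smc3 in 5 of 5 libraries, by -0.39 ± 0.21 on the log2(FPKM + 1) scale, with the narrowest gap of -0.14 in replicate 3. The order of the libraries for Rad21, lowest in replicate 1 and then 2, 4, 5 and 3, was shared by the mesenchyme list, whose median deviation from the gene means was -0.83, -0.37, 0.23, 0.35 and 0.47 in those libraries. Of the 10983 expressed genes 336 (3.06%) had this order, a comparison chosen after the values were seen, and the part of mesenchyme cells in the Rad21 levels was not tested.

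Stag2 and Stag1 are alternative subunits that bind Rad21 and give cohesin-STAG2 and cohesin-STAG1. Stag2 (ENSMUSG00000025862, chromosome X, 42149317 to 42277185) was listed at 40.0, 44.5, 36.4, 45.2 and 37.9 FPKM. Stag1 (ENSMUSG00000037286, chromosome 9, 100597798 to 100959375) was listed at 32.9, 30.0, 33.7, 27.9 and 31.3 FPKM. The ranges did not overlap, and the libraries moved in opposite order at their ends: replicate 4 was highest for Stag2 and lowest for Stag1, and replicate 3 was lowest for Stag2 and highest for Stag1. Stag2 exceeded Stag1 by 0.38 ± 0.23 on the log2(FPKM + 1) scale in 5 of 5 libraries (exact test over sign flips, p = 0.063), and held 51.9% to 61.8% of their joint FPKM (mean 56.6% ± 4.05, n = 5). The share was lowest in replicate 3 and highest in replicate 4. The G2 and M phase list had its highest median deviation, 0.15, in replicate 4 and its lowest, -0.16, in replicate 1. The Stag2 share in replicate 1 was 54.9%. In replicate 3, with the lowest share, the list stood at 0.01. In replicate 5, with the second-lowest share of 54.7%, the list had its second-highest value, 0.12. The part of cell cycle phase in the Stag2 share was not tested. Exons of Stag2 overlap those of an antisense gene over 28 bases, and the labels do not say that strand was kept.

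Smc1b, the meiotic counterpart of Smc1a (ENSMUSG00000022432, chromosome 15, 85064689 to 85131964), was listed at 0.273, 0.209, 0.101, 0.230 and 0.124 FPKM, replicate 1 first. At the implied depth these values stood for about 8.36 to 26.2 reads per library, so the differences between libraries rest on few reads. Smc1b lay below 1 FPKM, with a log2(FPKM + 1) difference of -0.75 (SE 0.04; limma, adjusted p = 3.1e-07). Smc1a exceeded it by 6.49 ± 0.14 on that scale in 5 of 5 libraries and was 356 to 1025 times higher in FPKM, which left Smc1a with 99.7% to 99.9% of their joint FPKM.

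The other meiotic subunits were low as well, though not all as low. Of all genes tested 52.3% were called above 1 FPKM, 41.4% below it and 70.4% below the typical expressed gene. Of the 4 genes of meiotic cohesin, Smc1b included, 1 was called above 1 FPKM, 2 below and 1 neither way. All 4 were called below the typical expressed gene. Stag3, which takes the place of Stag1 and Stag2 in meiosis, was the 1 above, at 1.65 ± 0.61 FPKM, a log2(FPKM + 1) difference of 0.37 from 1 FPKM (limma adjusted p = 0.035). That call was lost without replicate 2 (limma adjusted p = 0.1), replicate 4 (0.1) or replicate 5 (0.11), and without the filter on low values (0.065). Rec8, the meiotic kleisin, was called neither way at 1.24 ± 0.53 FPKM. Rad21l, another meiotic kleisin, was listed at 0.0905 and 0.0526 FPKM in replicates 1 and 2 and at 0 in the other libraries. Rad21 exceeded Rec8 by 4.23 ± 0.50 and Stag2 exceeded Stag3 by 4.01 ± 0.30 on the log2(FPKM + 1) scale, each in 5 of 5 libraries. Among 8 germ cell and meiosis markers 7 were called below 1 FPKM, beside 41.4% of all genes tested, and none above. Their summed level was 0.934 to 1.73 FPKM. The highest of them was Dmc1, the meiotic recombinase, at 0.96 ± 0.26 FPKM.

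Smc2, the SMC subunit common to condensin I and II (ENSMUSG00000028312, chromosome 4, 52439243 to 52488260), was the highest of the 10 genes and was listed at 180, 190, 220, 248 and 207 FPKM, replicate 1 first. Its mean level was above that of 96.8% of all genes and lay above the typical expressed gene by a log2(FPKM + 1) difference of 4.05 (SE 0.06; limma, adjusted p = 5.4e-12). Smc4, the other arm of the same heterodimer (ENSMUSG00000034349, chromosome 3, 69004738 to 69034623), was listed at 50.3, 65.8, 65.9, 66.7 and 70.9 FPKM. Replicate 1 stood below the others, which lay within 65.8 to 70.9 FPKM. Smc4 minus Smc2 was -1.69 ± 0.16 on the log2(FPKM + 1) scale in 5 of 5 libraries (exact test over sign flips, p = 0.063). Smc4 held 21.2% to 25.7% of their joint FPKM. The proteins form a heterodimer, but protein was not measured.

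Ncaph, the kleisin of condensin I (ENSMUSG00000034906, chromosome 2, 127103809 to 127133954), was listed at 90.3, 114, 102, 123 and 114 FPKM, replicate 1 first. Ncapg, a HEAT-repeat subunit of the same complex (ENSMUSG00000015880, chromosome 5, 45669919 to 45700546), was listed at 71.0, 76.0, 70.9, 95.1 and 82.6 FPKM. For both genes replicate 4 was the highest library. Ncapg was below Ncaph in 5 of 5 libraries, with a difference of -0.46 ± 0.10 on the log2(FPKM + 1) scale. Exons of Ncapg overlap those of Lcorl on the opposite strand over 944 bases of its 7066 exonic bases, and Lcorl itself stood at 3.29 ± 0.54 FPKM. Ncapd2, the remaining subunit of condensin I, stood at 125 ± 11.8 FPKM.

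The subunits special to condensin II did not share 1 order against their condensin I counterparts. Ncaph2, the kleisin of condensin II, stood at 192 ± 11.1 FPKM, and Ncaph minus Ncaph2 was -0.82 ± 0.18 on the log2(FPKM + 1) scale, with Ncaph lower in 5 of 5 libraries. Ncaph thus held 31.6% to 39.5% of the joint FPKM of the kleisins. For the HEAT-repeat subunits the order was the opposite one. Ncapg exceeded Ncapg2 (22.0 ± 1.34 FPKM) by 1.79 ± 0.16 and held 76.0% to 80.8% of their joint FPKM, and Ncapd2 exceeded Ncapd3 (26.8 ± 2.34 FPKM) by 2.18 ± 0.15, each in 5 of 5 libraries. The 5 values of Ncapd2 were 125, 142, 116, 112 and 130 FPKM, replicate 1 first, and those of Ncaph2 were 196, 207, 177, 189 and 190 FPKM. Exons of Ncaph2 overlap those of Sco2 over 829 bases and of Tymp over 535 bases on the opposite strand, out of 4198, and these genes stood at 25.6 ± 2.18 FPKM and, for Tymp, at values averaging 0.0181 FPKM. Reads of the opposite strands could not be told apart.

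**Figure D2:**
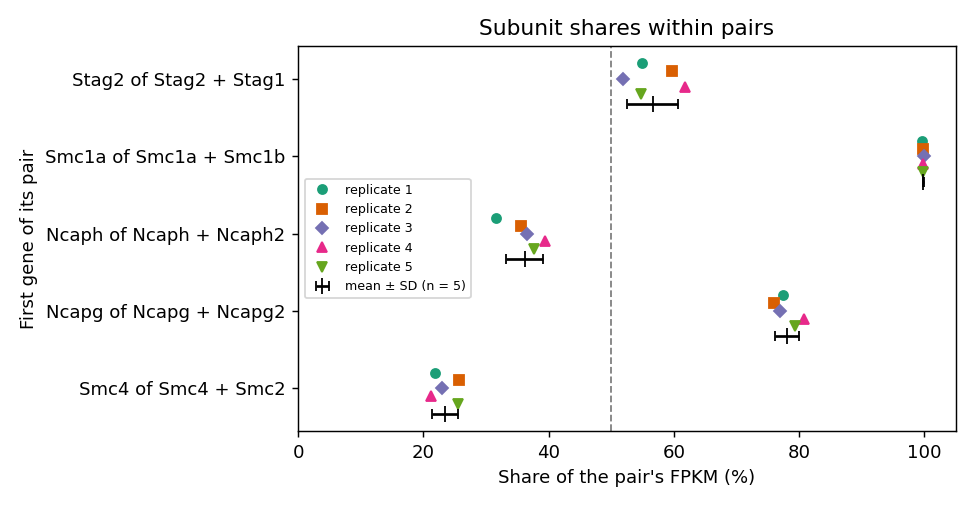
Share of the first gene in the joint FPKM of its pair, in percent, for 5 pairs in the 5 NEC libraries, with 1 symbol per replicate, the mean and SD below each row and a dashed line at 50%. Smc1a lies above 99%, Stag2 between 51.9% and 61.8%, Ncapg between 76.0% and 80.8%, Ncaph between 31.6% and 39.5% and Smc4 between 21.2% and 25.7%.

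Ordered by mean level, the 10 genes ran Smc2 (209 ± 26.5 FPKM), Ncaph (109 ± 12.9), Smc1a (106 ± 5.50), Ncapg (79.1 ± 10.1), Smc4 (63.9 ± 7.89), Smc3 (52.7 ± 1.57), Stag2 (40.8 ± 3.92), Rad21 (40.5 ± 6.87), Stag1 (31.2 ± 2.31) and Smc1b (0.187 ± 0.0727). Smc2 and Ncaph, Smc1a and Ncapg, Smc3 and Stag2, and Stag1 and Smc1b were neighbours whose ranges did not overlap. The other neighbours were not separated by their spread: Ncaph was above Smc1a in 3 of 5 libraries (difference 0.03 ± 0.11 on the log2(FPKM + 1) scale), and Stag2 was above Rad21 in 3 of 5 (0.02 ± 0.33). Smc4 was above Smc3 and Rad21 above Stag1 in 4 of 5 libraries each. Ncapg was above Smc4 in 5 of 5 libraries, but their ranges touched, with 70.9 FPKM as the lowest value of Ncapg and the highest of Smc4.

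The condensin median was higher than the cohesin median in every library. The median of Smc2, Smc4, Ncaph and Ncapg was 80.7, 95.2, 86.4, 109 and 98.5 FPKM in the 5 libraries. For Smc1a, Smc3, Rad21, Stag1 and Stag2 it was 40.0, 44.5, 49.5, 45.2 and 44.1 FPKM, in the order of replicates 1 to 5. The groups of values did not overlap, and the difference of condensin minus cohesin was 1.03 ± 0.18 on the log2(FPKM + 1) scale (exact test over sign flips, p = 0.063, the lowest possible). It was widest in replicate 4 (1.24) and narrowest in replicate 3 (0.77). Within a library the highest subunit exceeded the lowest 3.00 to 3.87 times among the 5 cohesin genes and 2.89 to 3.71 times among the 4 condensin genes.

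**Figure D3:**
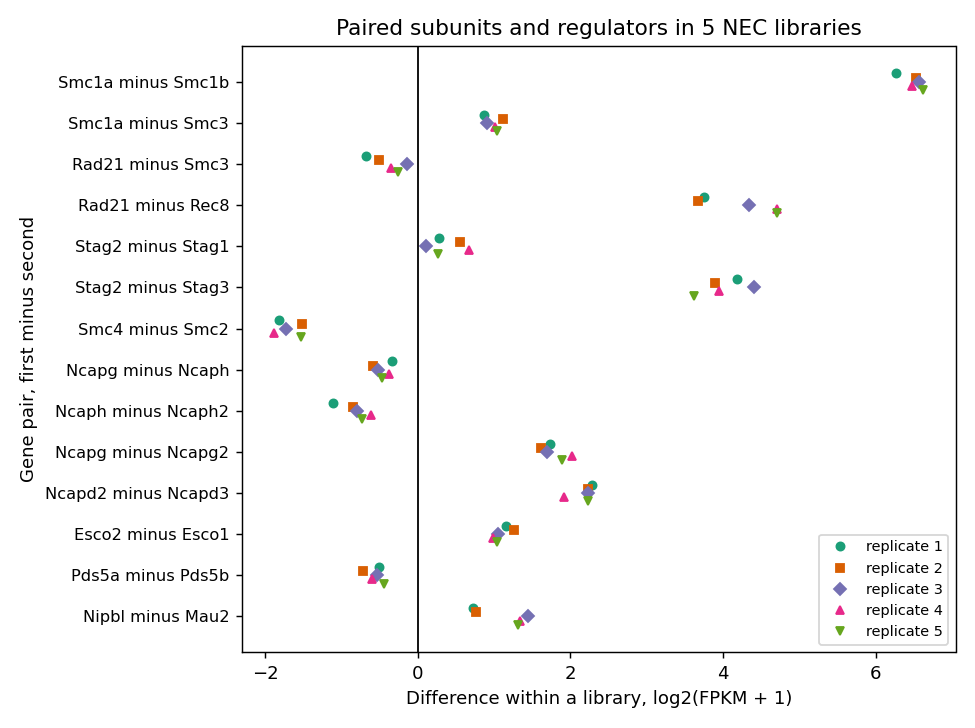
Difference of log2(FPKM + 1) within a library, first gene minus second, for the 14 gene pairs in the 5 NEC libraries, with 1 symbol per replicate and a line at 0. No pair has symbols on both sides of 0, and Stag2 minus Stag1 comes nearest to it, with 0.11 in replicate 3.

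The 4 condensin genes lay on the same side of their own means in 2 of the 5 libraries and were split in the others. All 4 were below their own 5-library mean in replicate 1 and above it in replicate 4, with median deviations of -0.23 and 0.22 on the log2(FPKM + 1) scale, and of 0.00, -0.02 and 0.07 in replicates 2, 3 and 5. The medians in replicates 2 and 3 come from genes on opposite sides: 2 of the 4 were above their mean in each, and in replicate 3 Smc2 (0.08) and Smc4 (0.05) were above while Ncaph (-0.09) and Ncapg (-0.15) were below. Of the 5 cohesin genes, 4 were below their mean in replicate 1 and 4 were above it in each of replicates 4 and 5, with median deviations that stayed within -0.05 and 0.05 over all libraries. Whether the genes of condensin move together more than those of cohesin was not tested. After rescaling each library by its median ratio the condensin values in replicates 1 and 4 were -0.16 and 0.18, while the cohesin value in replicate 1 turned to 0.05, against -0.02 as deposited. The median deviation of all expressed genes was -0.06 in replicate 1 and 0.03 in replicate 4. The other condensin subunits had a median of -0.04 and 0.01 in those libraries. Ncapd3 (-0.09 and 0.11) and Ncapg2 (-0.08 and 0.04) went the same way, Ncapd2 (0.01 and -0.15) and Ncaph2 (0.03 and -0.02) the opposite way. The G2 and M phase list deviated in the same direction as the 4 condensin genes, with -0.16 in replicate 1 and 0.15 in replicate 4. The S phase list deviated by -0.04 and 0.07. The mesenchyme list stood at -0.83 and 0.23 there, the neuron list at 0.27 and 0.00 and the neural progenitor list at 0.18 and -0.09. The surface ectoderm list stood at -0.26 and -0.14 and the erythroid and endothelial list at -0.18 and 0.24. The part of cell cycle phase and of these cell types in the condensin levels was not tested.

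**Figure D4:**
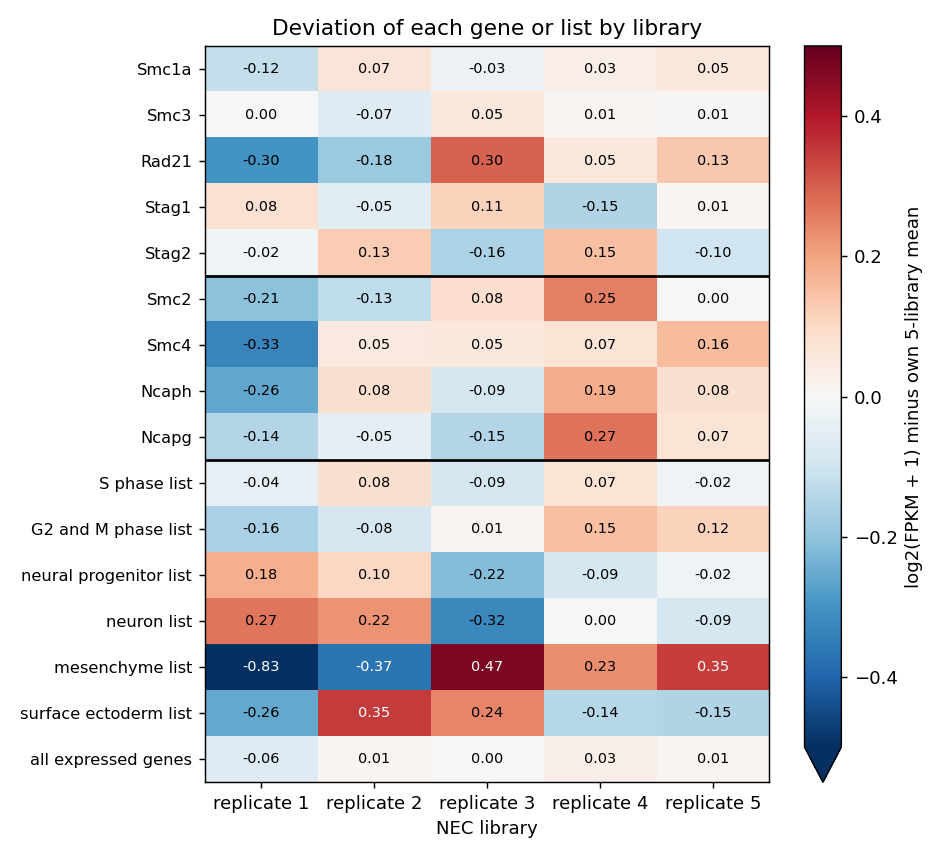
Deviation of log2(FPKM + 1) from the 5-library mean, for each of the 9 mitotic subunits and, as medians over genes that averaged 1 FPKM or more, for 6 gene lists and all expressed genes, with libraries in columns, red for higher and blue for lower values. The 4 condensin genes are all blue in replicate 1 and all red in replicate 4, and the mesenchyme list has the widest range, from -0.83 to 0.47.

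For the mean deviation of each complex, the genes with the nearest pattern over the 5 libraries were sought among 5852 other genes that averaged 10 FPKM or more, by the root mean square difference in log2(FPKM + 1) deviation. For condensin these were Thumpd3 at a difference of 0.0113, Ech1, an enzyme of fatty acid breakdown, at 0.0163, and Zfp207, a zinc finger protein that binds the checkpoint protein Bub3, at 0.0172, against a median of 0.141 over all candidates. For cohesin they were Wdr43, a ribosome biogenesis factor, at 0.0078, Sf3a1, a splicing factor subunit, at 0.00891, and Ndufa8, a subunit of respiratory complex I, at 0.0115, against a median of 0.117. The cohesin profile was almost flat, with a root mean square deviation of 0.0439, so its nearest genes are other flat ones. It is a mean over genes that were not all flat. Stag1 deviated by 0.11 and -0.15 in replicates 3 and 4, where Stag2 deviated by -0.16 and 0.15. Rad21 ran from -0.30 to 0.30 over the libraries, while Smc3 stayed within -0.07 and 0.05 and Smc1a within -0.12 and 0.07. With 5 libraries and so many candidates a near pattern is a description of these samples.

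The factors that load, release and acetylate cohesin were expressed throughout. All 10 genes of that list were called above 1 FPKM, 8 above the typical expressed gene and 2 below it. Of all genes tested the shares were 52.3%, 26.1% and 70.4%. The median of gene means in the list was 18.0 FPKM, below every mitotic cohesin subunit. Cdca5, or sororin, which protects cohesion after replication, was the highest at 65.4 ± 5.36 FPKM. Esco2, which acetylates Smc3 during S phase, stood at 29.6 ± 2.26 FPKM and exceeded its homolog Esco1 (13.3 ± 1.57 FPKM) by 1.10 ± 0.11 on the log2(FPKM + 1) scale in 5 of 5 libraries. Nipbl, the cohesin loader, stood at 13.6 ± 2.13 FPKM and exceeded its partner Mau2, the lowest gene of the list at 5.69 ± 0.67 FPKM, by 1.12 ± 0.35. Nipbl was listed at 10.98, 11.8, 15.9, 14.1 and 15.1 FPKM, replicate 1 first, the same order of libraries as Rad21. Its call above the typical expressed gene was lost without replicate 3 (limma adjusted p = 0.12), replicate 4 (0.085) or replicate 5 (0.13), and that of Esco1 without replicate 4 (0.11) or replicate 5 (0.092). Pds5a, a regulator of loading and release, was below Pds5b in 5 of 5 libraries, at 14.4 ± 1.64 against 21.6 ± 1.74 FPKM, with a difference of -0.56 ± 0.10. Wapl, which opens the ring, stood at 25.7 ± 2.32 FPKM, and Ctcf, the DNA-binding protein at which loops stop, at 22.1 ± 1.87.

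The genes that end or guard cohesion were more spread in level. Of the 6, all were called above 1 FPKM, 4 above the typical expressed gene and 2 below it. Of all genes tested the shares were 52.3%, 26.1% and 70.4%. Aurkb, the kinase of the chromosomal passenger complex, stood at 104 ± 17.9 FPKM and Pttg1, or securin, the inhibitor of separase, at 71.9 ± 4.87. Sgo2a, a shugoshin that shields centromeric cohesin, was the lowest at 6.21 ± 1.08 FPKM. Espl1, separase itself, stood at 8.62 ± 0.89 FPKM, and was chosen after its value was seen.

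**Figure D5:**
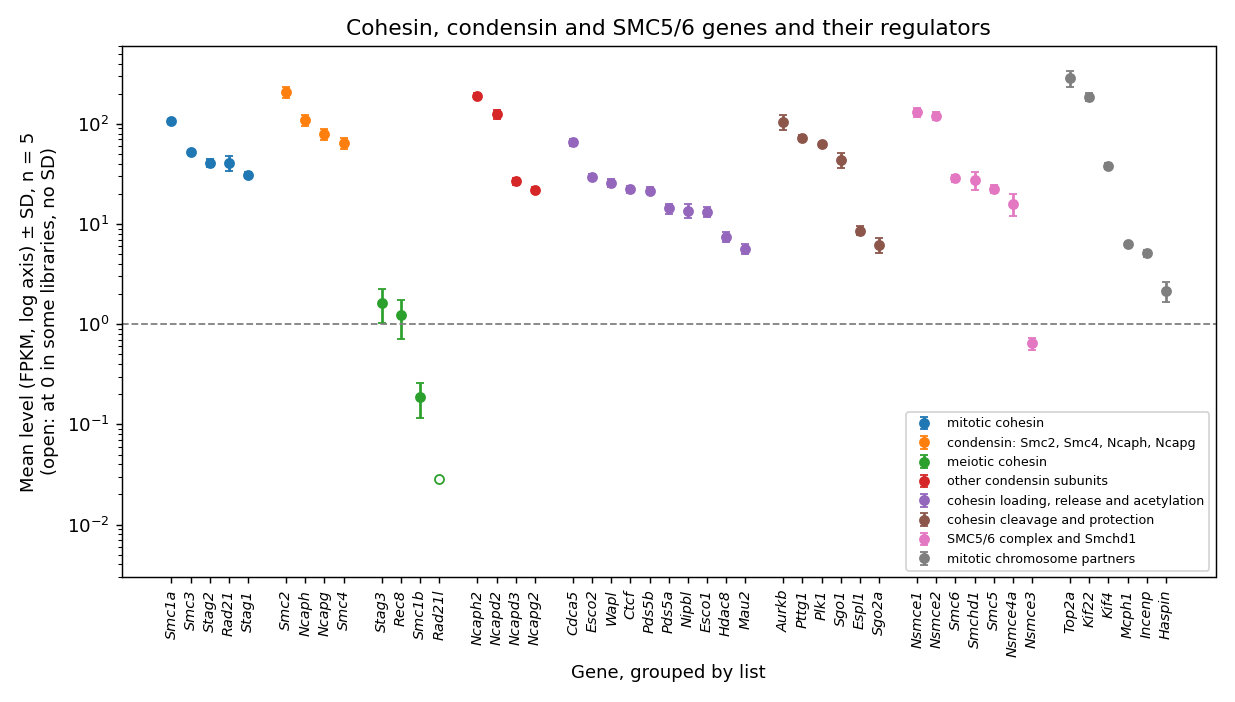
Mean level in FPKM (log axis) with SD over the 5 NEC libraries for the mitotic cohesin and condensin genes, the meiotic cohesin genes, the other condensin subunits, the regulators of cohesin, the SMC5/6 genes and mitotic chromosome partners, with a dashed line at 1 FPKM and an open symbol without SD for Rad21l, which was listed at 0 in 3 libraries. Meiotic cohesin genes lie at or below 1.65 FPKM and the mitotic cohesin genes, Smc2, Smc4, Ncaph and Ncapg at or above 31.2 FPKM. The other condensin subunits lie at or above 22.0 FPKM.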

How the data were processed

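Total RNA of purified mouse NECs was sequenced in 5 libraries, all of 1 group. According to the protocols in the labels, cDNA was primed with poly-dT, template-switched, amplified, sheared and read single-end. No molecular identifiers are described and strand is not stated, so PCR copies and antisense reads could not be told apart. The authors deposited 1 table of FPKM, 1 value per gene and library. Per the submitters' processing notes, Cuffdiff 2.2.1, TopHat2 2.0.11, cutadapt and CASAVA 1.8 were used with the build mm10, in roles not stated there. Value columns were matched to samples by replicate number.

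Levels were analysed as log2(FPKM + 1), which understates differences of low genes. A difference between genes also depends on the lengths and the read coverage behind their FPKM, which were not checked. Such a dependence would repeat in every library, so agreement among the 5 libraries and the exact test do not speak to it. With limma 3.58.1 (R 4.3.3) an intercept and a variance trend were fitted over the 5 libraries for the 19706 genes above 0 in at least 1 library, and tested, two-sided, against 1 FPKM and against the library's typical expressed gene, with Benjamini-Hochberg adjustment over all genes and a threshold of 0.05. The fit was tested on simulated data. Gene pairs and complex medians were compared within libraries by the exact sign-flip permutation test. The depth was read from genes of 1 transcript under 0.15 FPKM and longer than 800 bases, with 200 bases taken off the length, and reads per gene were implied from its longest transcript. Coordinates and exon overlaps came from GENCODE M21, of the build mm10. Wapl, Sgo1, Sgo2a, Nsmce3 and Haspin carry older symbols in the table and were matched by gene identifier.

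The 10 genes, the lists and the tests were chosen with earlier results of these data known. Named were all 10 genes, both genes of each pair, the 2 highest and the lowest gene of each pathway list, and the 3 genes of nearest pattern per complex. Wapl, Ctcf, Ncapd2 by library, Dmc1, Dcn, Smc5, Smc6, the overlapping genes and the neural progenitor and neuron markers were named with their values in view. As alternatives, pseudocounts of 0.5 and 0.1, 2 rescalings, other levels, filters and variance settings, and leaving out each library were tried.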

Additional observations from a re-analysis of the deposited data

Results flagged for a closer look

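Of 30 results looked at in the 5 libraries, 2 had a library far from the others, by Dixon's test at the 95% level, where chance flags about 1 in 20. Smc4 in replicate 1 was lowest at 50.3 FPKM, a gap of 0.75 of the whole range to the nearest library. The difference of Ncapd2 minus Ncapd3 in replicate 4 was lowest at 1.92 on the log2(FPKM + 1) scale, a gap of 0.855 of the range, and without that library it averaged 2.25.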

How the results depend on the processing

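The counts of 9 genes above and 1 below, against 1 FPKM and against the typical expressed gene, held under every alternative run, and no pair, complex difference or call of the 10 genes changed direction. Calls of other genes of the pathway did change. A typical gene taken over means of at least 0.1 FPKM, a lower bar, put Espl1, Hdac8, Sgo2a and Mcph1 above it. With that bar Mau2 and Incenp were no longer called below it. A level of 0.5 FPKM turned the call of Nsmce3 to above. Rec8 was called above a level of 0.5 FPKM and below one of 2 FPKM. Stag3 and Haspin were no longer called above at a level of 2 FPKM. Leaving out each library in turn, condensin minus cohesin ran from 0.98 to 1.10, Stag2 minus Stag1 from 0.30 to 0.44 and Ncaph minus Ncaph2 from -0.87 to -0.74 on the log2(FPKM + 1) scale, and the Stag2 share from 55.3 to 57.8%. With 4 libraries no exact test could reach 0.05. A mean of at least 0.1 FPKM lowered the number of genes tested, and with it the number of all genes called below 1 FPKM to 3495, against 8167, and below the typical expressed gene to 9173, against 13871. Rescaling to a sum of 1000000 FPKM raised the median expressed gene by 0.30 on the log2 scale and moved the cohesin median deviation to 0.07 in replicate 1 and -0.05 in replicate 4, where the values as deposited were -0.02 and 0.03, and condensin stood at -0.14 and 0.13 there. No paired analysis was possible because the study has 1 group. Depth limits Smc1b and the other genes under 1 FPKM, whose values rest on few reads, and Cuffdiff's handling of reads shared between transcripts could not be checked here.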

Other observations

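The third SMC complex, SMC5/6, which acts in DNA repair and replication, was expressed as well. Smc5 and Smc6, its SMC pair, averaged 22.5 ± 1.88 and 28.8 ± 2.38 FPKM, below the mean of every mitotic cohesin subunit. In replicate 4, though, Smc6 stood above Stag1, at 32.2 against 27.9 FPKM. Of all genes tested 52.3% were called above 1 FPKM and 41.4% below it. Against the typical expressed gene these shares were 26.1% and 70.4%. Of the 7 genes of the list 6 were called above 1 FPKM and above the typical expressed gene, and 1 below. The subunits Nsmce1 (131 ± 13.1 FPKM) and Nsmce2, a SUMO ligase (121 ± 10.7 FPKM), were the highest, and Nsmce3 was the 1 below, at 0.65 ± 0.09 FPKM (limma adjusted p = 0.00095 against 1 FPKM). Its call below 1 FPKM was lost when libraries were rescaled to a sum of 1000000 FPKM (limma adjusted p = 0.064).

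Of 6 partners of condensin on mitotic chromosomes, all were called above 1 FPKM, 3 above the typical expressed gene and 3 below it. Of all genes tested the shares were 52.3%, 26.1% and 70.4%. Top2a, the topoisomerase that untangles sister chromatids, had 212, 267, 288, 344 and 325 FPKM, replicate 1 first, and was thus lowest in replicate 1 and highest in replicate 4 as the condensin median was. Kif22, a chromosome-bound kinesin, stood at 187 ± 16.0 FPKM and Haspin, the kinase of histone H3 at centromeres, at 2.16 ± 0.48. Kif22 had the same lowest and highest libraries as Top2a, and the other genes of the list did not. The median deviation of all expressed genes was also lowest in replicate 1 (-0.06) and highest in replicate 4 (0.03). How many expressed genes had these lowest and highest libraries was not counted.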
